A study of Mus musculus with 109 samples.

Results

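The region described here is an AT-rich, gene-poor stretch of mouse chromosome 8 around Cdh8, from 98 to 104 Mb in the mm9 build. Its members were all HindIII sites of that interval. They numbered 2005 of the 39480 HindIII sites of chromosome 8 and of the 823352 sites of the whole deposited table, and they fall into 12 bins of 500 kb. The interval was defined by position and not by its contacts.

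The study used 4C-seq, a form of chromosome conformation capture, which counts the reads that join each HindIII site of the genome to 1 chosen fragment, the bait. The cells were C127, a mouse mammary tumour line, grown in bulk culture. The series asked how contacts are set up in early G1 relative to the replication timing program. The 6 baits of chromosome 8 are compared here, each named by its approximate position in megabases (B7, B26, B44, B53, B87 and B118). For each bait the libraries were labelled as mitosis (cells held for 4 h in nocodazole, not for B87 and B118), 0.5 h and 1 h after release into G1 (2 libraries each), 2 h (2 technical replicates, summed), 3 h, 4 h, G2 (15 h release) and G0 (5 days without serum, 2 libraries). This gave 11 libraries per bait, or 10 for B87 and B118, and 64 in all from 70 columns of the table. Labels call all replicates biological except those of 2 h. They do not say whether baits were read from shared cultures, so each p-value below measures the spread between these libraries.

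Gene deserts are long stretches with few or no protein-coding genes. In mammals many are AT-rich, replicate late in S phase and lie near the nuclear lamina. In conformation capture data such regions tend to contact other regions of their own kind more than gene-rich ones. Cdh8 encodes cadherin 8, a classical type II cadherin, a calcium-dependent adhesion protein best known from the nervous system.

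The 6 viewpoints are given first because every value below is a contact between 1 of them and the desert. Each sequence is the bait primer with its position in mm9 on the plus strand, and capitals mark the HindIII recognition sequence at which the fragment was cut and ligated.
B7, chr8:7223950-7223970: tattaggacagacagAAGCTT
B26, chr8:26774313-26774332: ttgagtttgacgccAAGCTT
B44, chr8:44417335-44417354: ggtcatccctttagAAGCTT
B53, chr8:52961959-52961978: aaacatgtttggccAAGCTT
B87, chr8:87434064-87434081: gggcggagatggAAGCTT
B118, chr8:118459309-118459328: cctcatacagctggAAGCTT
The nearest edge of the desert lay 90.8 Mb from B7, 71.2 Mb from B26, 53.6 Mb from B44, 45.0 Mb from B53, 10.6 Mb from B87 and 14.5 Mb from B118. B53 sat in a 500-kb bin of 36.2% GC with 0 protein-coding genes, and B7 in one of 37.1% GC with 0 genes. B26 sat in a bin of 45.0% GC with 12 genes and B87 in one of 49.9% GC with 20 genes. B44 (40.5% GC, 4 genes) and B118 (43.9% GC, 1 gene) lay between these.

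The 5 desert sites captured in the most libraries, where capture means 1 read or more, are shown with 20 bases on each side, capitals again marking the HindIII sequence. All 5 lay between protein-coding genes.
Site near Csnk2a2, chr8:98019818-98019863: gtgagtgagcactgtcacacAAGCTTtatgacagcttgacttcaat
Site near Cnot1, chr8:98333035-98333080: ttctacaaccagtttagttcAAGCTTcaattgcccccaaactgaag
Site near Got2, chr8:98386686-98386731: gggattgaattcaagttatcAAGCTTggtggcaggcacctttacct
Site in the gene-free centre, chr8:100157258-100157303: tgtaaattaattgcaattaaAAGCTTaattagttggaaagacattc
Site near Gm3662, chr8:103149730-103149775: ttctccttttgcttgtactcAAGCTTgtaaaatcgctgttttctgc
The site near Cnot1 was captured in 33 of 64 libraries and each of the other 4 in 34 of 64, all 5 by all 6 baits. The sites near Csnk2a2 (7111 bp away), Cnot1 (1689 bp) and Got2 (1328 bp) are 3 of these 5, and all 3 lie in the first 500 kb of the interval. Csnk2a2 encodes a catalytic subunit of casein kinase 2, Cnot1 the scaffold of the CCR4-NOT deadenylase, and Got2 the mitochondrial aspartate aminotransferase. The site near Got2 was captured in 10 libraries of B118, 7 of B87 and 6 of B26, against 4 of B53 and 2 of B7. The site of the gene-free centre, 1119847 bp from the nearest protein-coding gene, was captured in 8 libraries of B53, 7 of B87, 6 of B44, 6 of B118, 4 of B7 and 3 of B26. These 2 sites thus had opposite orders for B53 and B26, by few libraries at the site near Got2. For B53 and B26 the site near Csnk2a2 had 5 and 6 libraries, that near Cnot1 4 and 4, and that near Gm3662 6 and 4.

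The table and its labels were checked once for all libraries. All 39480 chromosome 8 positions matched HindIII sites of mm9. The 70 columns held 266006 to 8826711 reads (median 2985117), and all 70 had more reads within 100 kb of the bait they are labelled with than of any of the other 5. Captured desert sites overlapped by 75.3% to 98.2% (of the smaller set, depending on the bait) between 1 h replicate 2 and the first technical replicate of 2 h. Between both technical replicates of 2 h the overlap was 23.1% to 97.6%. On other chromosomes G0 replicate 1 shared 61.3% of sites with 1 h replicate 2 at B44 and 50.7% at B53, and G0 replicate 2 shared 81.5% with it at B118. With the first technical replicate of 2 h the same G0 libraries shared 61.6% at B44, 50.1% at B53 and 83.6% at B118. G0 replicate 1 shared 26.8% with it at B26 (5.66 times the chance overlap) and 13.3% at B7 (3.88 times). G0 replicate 2 shared 16.1% with it at B87 (3.63 times), and 15.4% with the second technical replicate at B26 (5.51 times). At B7, 30 min replicate 2 and 3 h shared 32.0% (14.6 times). Reads on chromosome 8 made up 55.1% and 55.2% of G0 replicate 1 at B87 and B118, against at least 79.1% of it at the other 4 baits. Low shares were not limited to G0. The median over baits was 46.3% for 30 min replicate 2, 51.5% for 4 h and 59.7% for 3 h. The remaining labels had medians of 63.2% (G2) or more. Times below are therefore times as labelled, and some comparisons between times are also given with some of these libraries left out.

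The desert was AT-rich and gene-poor over 11 of its 12 bins. As a whole it was 38.3% GC, against 42.4% for chromosome 8, with 2.5 protein-coding genes per Mb against 8.67. HindIII, whose recognition sequence holds more A and T than G and C, cut it 334 times per Mb, against 316 times for the chromosome, so expected captures were computed per HindIII site. The first bin went against the description. It was 45.2% GC and held 10 of the 15 genes: Csnk2a2, Ccdc113, Prss54, Gins3, Ndrg4, Setd6, Cnot1, Gm10094, Slc38a7 and Got2. Without it the region was 37.6% GC with 0.909 genes per Mb. The other 5 genes were 1700047G07Rik, Cdh8 (chr8:101548371-101940371, minus strand), A330008L17Rik, which starts beside Cdh8 on the opposite strand, Gm3662 and Gm17316. The longest stretch with no protein-coding gene ran over 2510939 bp, from 99037432 to the end of Cdh8 at 101548370. The 6 Mb on the proximal side held 68 genes at 44.8% GC and the 6 Mb on the distal side 110 genes at 43.0% GC.

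**Figure D1:**
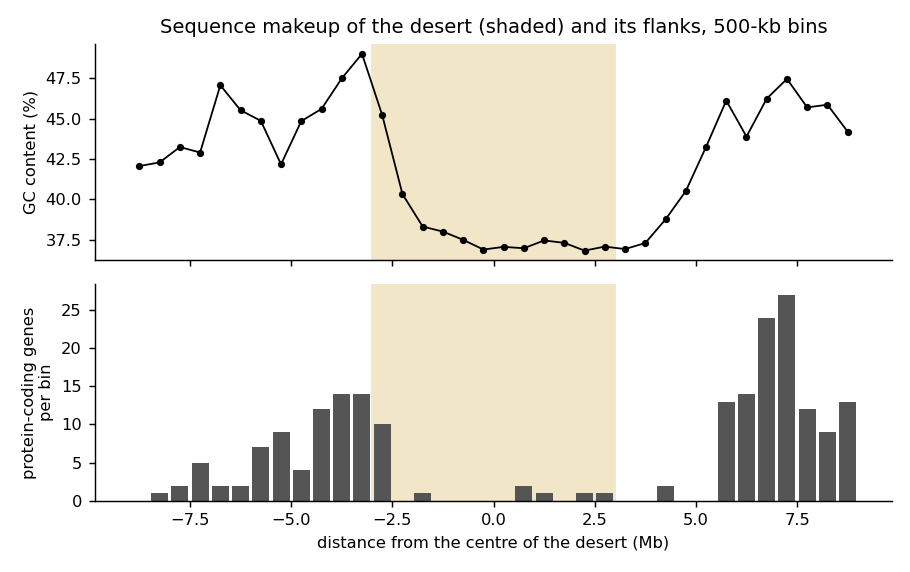
GC content (%) and the number of protein-coding genes in 500-kb bins, plotted against distance from the centre of the desert (Mb), with the desert shaded. The first shaded bin holds 10 genes at 45.2% GC, and GC falls to 36.8% in the eleventh.

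The desert was met more often than distance predicts by B53, and less often by B26 and B87. The value used is the log2 ratio of captured desert sites observed to those expected, where the expectation comes from each library's own decay of capture with distance along chromosome 8. A value of 0 means as many sites as distance predicts. At B53, itself a gene-poor bait, values ran from 0.07 to 0.80 with a median of 0.22, and the mean was 0.36 ± 0.27 (SD, n = 11). All 11 B53 libraries lay above 0. In the 2 h library of B53, for example, 1388 of the 2005 sites were captured where 1192 were expected.

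At B26 and B87, the gene-rich baits, no library lay above 0. B26 values ran from -1.69 to -0.43 with a median of -0.91 and a mean of -0.90 ± 0.42 (n = 11). In its 4 h library 18 desert sites were captured where 59.2 were expected. B87 values ran from -2.15 to -0.07 with a median of -0.41 and a mean of -0.71 ± 0.77 (n = 10), so its libraries were the most spread of the 6 baits. Without the libraries labelled 3 h and 4 h the B87 mean was -0.40. Its 4 h library captured 10 of 2005 sites, or 0.499% (exact Clopper-Pearson 95% interval 0.239% to 0.915%, counting error only), where 46.2 were expected.

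The other 3 baits lay nearer to 0. B118 had a mean of -0.22 ± 0.29 (lowest -0.77, median -0.07, highest 0.12, 1 of 10 libraries above 0), or -0.11 without 3 h and 4 h. B44 had a mean of -0.12 ± 0.15 (lowest -0.50, median -0.07, highest 0.09, 1 of 11 above 0). B7 had a mean of -0.09 ± 0.23 (lowest -0.50, median -0.16, highest 0.26, 3 of 11 above 0). B7 sits in a gene-free bin like B53 and lies farthest from the desert, and 8 of its 11 libraries captured fewer desert sites than distance predicts. With any 1 label left out, the mean stayed between 0.32 and 0.39 at B53, between -0.94 and -0.82 at B26 and between -0.78 and -0.55 at B87.

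Reads gave the same order for the baits at the ends. Mean log2 observed over expected reads was 0.65 ± 0.32 at B53 (11 of 11 libraries above 0), -0.80 ± 0.57 at B26 (1 of 11) and -0.80 ± 0.59 at B87 (0 of 10). It was -0.15 ± 0.29 at B118 (5 of 10) and -0.02 ± 0.17 at B44 (4 of 11). At B7 the sign differed from that of captured sites, with a mean of 0.26 ± 0.39 and 8 of 11 libraries above 0. A desert site captured by B7 carried a median of 22 reads and one captured elsewhere beyond 2 Mb a median of 48, each a median over its 11 libraries. In the 4 h library of B7, 1 site held 26.0% of the desert reads. No site held over 50% of a library's desert reads at any bait, and the highest share was 44.9%, in the 4 h library of B87.

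**Figure D2:**
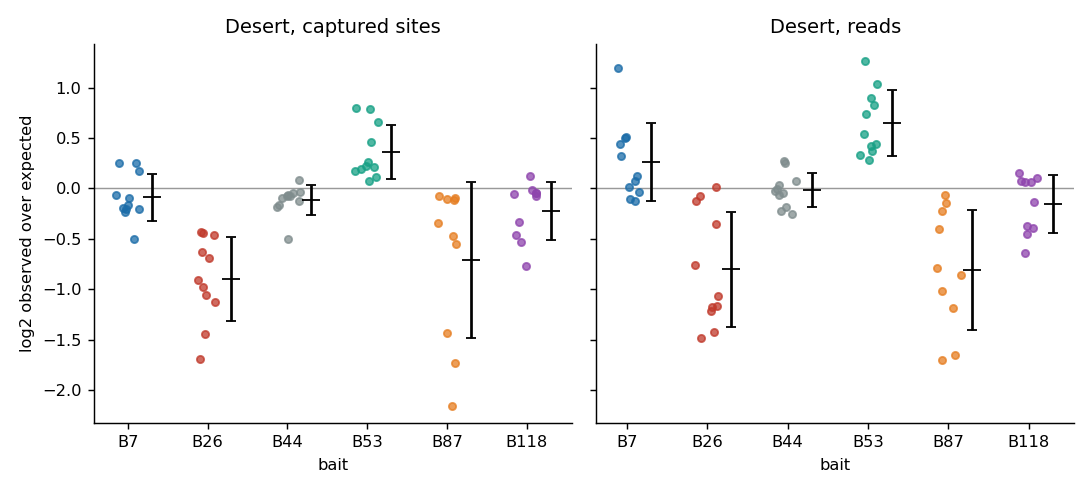
Log2 observed over expected of the desert for each library (points) of the 6 baits, from captured sites on the left and reads on the right, with mean and SD beside the points. All 11 points of B53 lie above 0 and all 10 of B87 below 0 in both panels, while B7 changes sign between them.

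Of the 15 pairs of baits, 10 differed in the captured-site value past an adjusted p of 0.05 (two-sided permutation test over libraries, 100000 resamples, Benjamini-Hochberg over the 15 pairs). Libraries of all labels counted as separate units here and in the sign-flip tests over libraries below. Because 1 h replicate 2 and 2 h shared captured sites as given above, these p-values may be too small. B53 exceeded each of the other 5: B26 by 1.26 (95% interval 0.94 to 1.57), B87 by 1.07 (0.50 to 1.63), B118 by 0.58 (0.33 to 0.84), B44 by 0.48 and B7 by 0.45. The adjusted p in this permutation test was 6e-05 for B26, B87, B118 and B44 (unadjusted 2e-05) and 0.000814 for B7. B26 and B87 differed by -0.19 with an interval of -0.78 to 0.40 (adjusted permutation p = 0.521). B7 differed from B44 by 0.03 (interval -0.15 to 0.20) and from B118 by 0.13 (-0.11 to 0.37), and B44 from B118 by 0.11 (-0.11 to 0.32), and none of these 3 passed. With libraries paired by label, 9 pairs passed in an exact sign-flip permutation test. B87 against B118, -0.49, was gained (adjusted p from 0.116 to 0.00366), and B7 and B44 against B87 were lost (adjusted exact permutation p = 0.0879 and 0.0703).

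The share of desert sites captured varied widely within and between baits. At B118 it ran from 6.38% to 78.5% with a median of 58.6%, and at B87 from 0.499% to 65.0% with a median of 29.6%. At B53, 45.0 Mb away, it ran from 4.04% to 69.2% with a median of 25.9%, and at B44 from 3.74% to 39.5% with a median of 23.2%. The 2 most distant baits captured few, with medians of 5.19% at B26 and 4.49% at B7. Over all baits 325 of the 2005 sites (16.2%) were never captured, against 15.0% of the 30063 sites elsewhere on the chromosome and more than 2 Mb from every bait. A desert site was captured in a median of 18 libraries and a site elsewhere in a median of 22. A total of 502 desert sites were captured by all 6 baits.

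**Figure D3:**
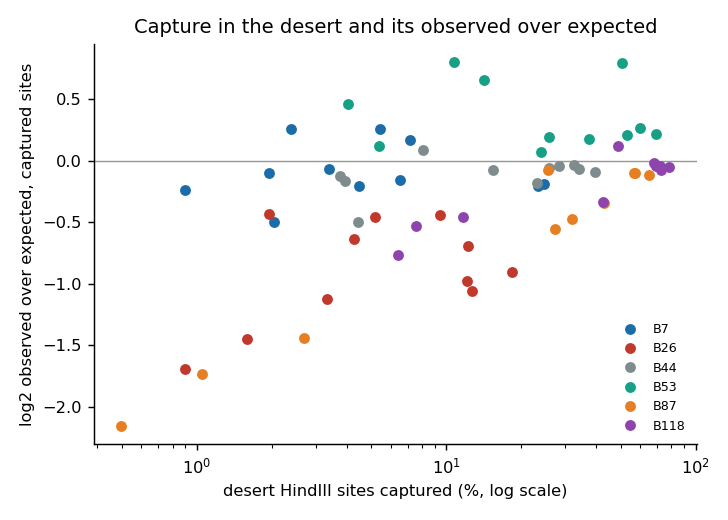
Log2 observed over expected captured sites of the desert in each library against the share of desert HindIII sites captured (%, log scale), coloured by bait. The B87 and B118 libraries that captured over 50% of the sites all lie near 0, and the lowest B87 values, down to -2.15, come from libraries that captured under 3%.

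The desert was then set against the 6 Mb on either side, which bracket it in distance, within each library. At B53 the desert exceeded its flanks by 0.47 ± 0.53, in 10 of 11 libraries (adjusted p = 0.00781, two-sided exact sign-flip permutation test, Benjamini-Hochberg over 12 comparisons). The desert was below its flanks by -0.98 ± 0.54 at B26 (0 of 11 libraries above) and by -1.12 ± 1.19 at B87 (0 of 10), both with an adjusted exact permutation p of 0.00586. At B118 the difference was -0.31 ± 0.36, with 1 of 10 libraries above 0 (adjusted exact permutation p = 0.00781). Counted in reads the B118 difference was -0.26 and no longer passed. Without 3 h and 4 h the differences were -0.66 at B87 and -0.17 at B118, and both passed. The flanks were not uniform: the bin 8.75 Mb proximal to the centre of the desert, with 0 genes at 42.1% GC, had -1.37 ± 0.30 (SEM) at B26, -0.61 ± 0.19 at B87 and 0.51 ± 0.17 at B53. At B7 the desert exceeded its flanks by 0.14 ± 0.20 (8 of 11, adjusted exact permutation p = 0.0563) and at B44 the difference was -0.03 ± 0.14 (5 of 11, 0.604), and neither passed.

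The desert was also set against other bins of its own composition. These were all other chromosome 8 bins under 38% GC with at most 1 protein-coding gene, 22 to 30 bins depending on the bait. At B53 the desert exceeded them by 0.31 ± 0.10, in 11 of 11 libraries (adjusted exact permutation p = 0.00586), and by 0.33 without its gene-rich first bin. The other bins of this kind had a mean of 0.05 ± 0.22 at B53. At B26 they had -0.57 ± 0.75, and the desert was -0.32 ± 0.43 below them (2 of 11 above, adjusted exact permutation p = 0.0563). Without the first bin the B26 difference was -0.54 and passed (adjusted exact permutation p = 0.00469).

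At B87 the other AT-rich bins had -0.95 ± 0.69 and the desert lay 0.24 ± 0.22 above them, in 9 of 10 libraries (adjusted exact permutation p = 0.0234). At B118 they had -0.38 ± 0.28 and the desert lay 0.16 ± 0.11 above them, in 10 of 10 (0.00586). Both differences rested on the first bin: without it they were 0.08 (adjusted exact permutation p = 0.473) and 0.07 (0.281). At B7 the difference was -0.15 ± 0.21 (3 of 11 above, 0.0563) and at B44 0.01 ± 0.15 (8 of 11 above, 0.918).

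Within the desert, the first bin separated from the rest at the baits that met the desert least. Its value exceeded that of the other 11 bins by 1.55 ± 0.79 at B26 (11 of 11 libraries), by 0.99 ± 1.04 at B87 (10 of 10) and by 0.74 ± 0.83 at B118 (10 of 10). At B53 the difference was -0.53 ± 0.66, with the first bin higher in 3 of 11 libraries. At B44 it was 0.09 ± 0.29 and at B7 -0.00 ± 0.59. The bin itself had a mean of 0.43 ± 0.33 at B26, where the next bin had -0.91 ± 0.56, so the value crossed 0 between neighbouring bins. At B53 the same step ran the other way, from -0.14 ± 0.41 to 0.23 ± 0.23.

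From the second bin to the eleventh B53 had the highest mean of the 6 baits in every bin. It was above 0 in each of these 10 bins, against 40.1% of the 242 bins of chromosome 8 ranked for that bait, and 7 desert bins stood among the 24 highest. The highest was the Cdh8 bin (chr8:101500001-102000000), at 0.56 ± 0.49 with 10 of 11 libraries above 0, rank 4 of 242. The bin from 99500001 to 100000000 followed with 0.50 ± 0.44, above 0 in 11 of 11 libraries, rank 9.

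B26 was above 0 in only the first of the 12 bins, against 39.3% of its bins on the chromosome, and 8 desert bins were among its 24 lowest. Its minima were the adjacent bins from 102000001 to 103000000, at -1.57 ± 0.85 and -1.54 ± 0.91, ranks 238 and 237 of 242, with 0 of 11 libraries above 0 in either. The first of them holds part of A330008L17Rik and had the highest share of sites never captured at any bait, 24.7% of 170. B87 was lowest in the same bin, at -1.09 ± 1.05 (0 of 10 above 0), and B118 likewise, at -0.60 ± 0.56 (0 of 10). For B87 and B118 again only the first bin was above 0, against 38.8% and 40.5% of their bins on the chromosome. Their desert bins were less extreme than those of B26, with 1 at B87 and 0 at B118 among the 24 lowest.

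B7 and B44 showed no plateau. B7 varied from bin to bin, with 0.37 ± 0.44 from 99500001 to 100000000 (9 of 11 libraries above 0, rank 7) and -0.79 ± 1.41 only 500 kb farther on, from 100500001 to 101000000 (3 of 11). It captured 4.49% of the sites in its median library, which leaves few captures per bin. B44 stayed between -0.28 and 0.10 from the first bin to the eleventh and fell to -0.66 ± 0.96 in the last (1 of 11).

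**Figure D4:**
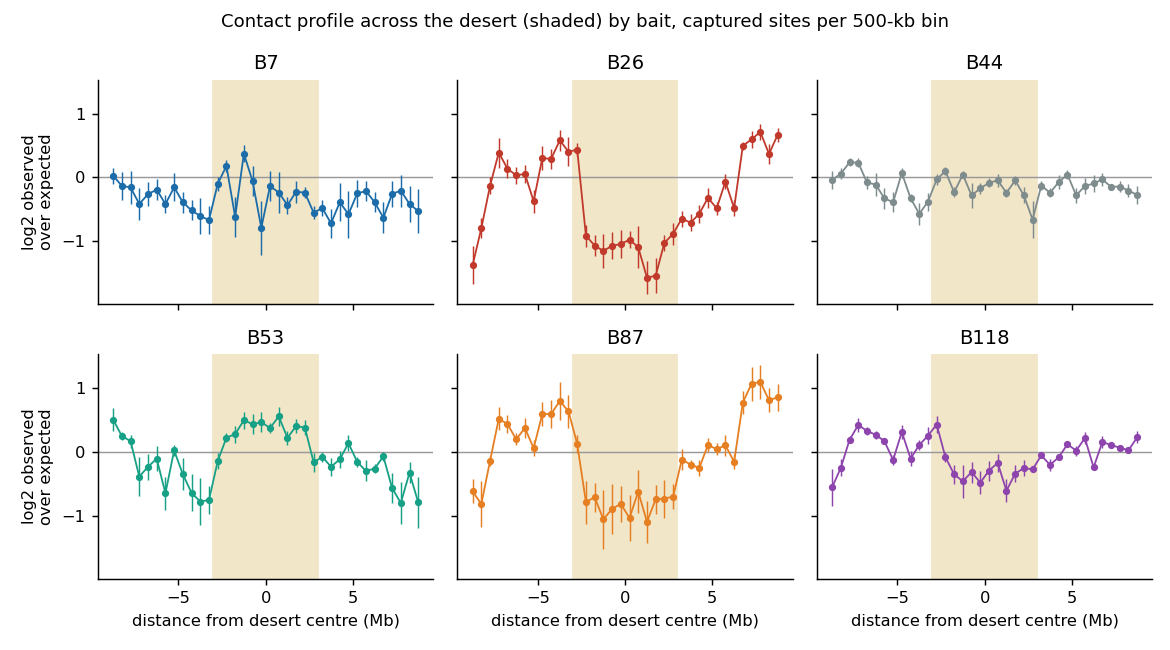
Mean log2 observed over expected captured sites per 500-kb bin, with the standard error over libraries, against distance from the centre of the desert (Mb), 1 panel per bait, desert shaded. B53 forms a raised plateau where B26 and B87 form a trough, B118 a shallower one, and B7 and B44 neither.

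The proximal edge and the distal edge differed. At the proximal edge GC fell from 45.2% to 40.3% and the gene count from 10 to 0 between the first and the second bin. Contact changed there too at B26, B87, B118 and B53, as given above. At B44 and B7 the first bin differed from the rest by only 0.09 and -0.00. At the distal edge GC stayed at 36.9% to 37.3% through the bins from 103.5 to 105 Mb, which hold 1 protein-coding gene, Gm17316. These 3 bins were singled out after the profiles were seen, so their values carry no test. B53 had -0.14 ± 0.37 in them, against 0.42 ± 0.33 in the 10 bins before, and was lower in the edge bins in 11 of 11 libraries. B26 had -0.74 ± 0.40 against -1.15 ± 0.60, and B87 -0.30 ± 0.39 against -0.87 ± 0.99, with the inner bins the lower ones in all but 2 of 11 and 1 of 10 libraries. B7 had -0.59 ± 0.39 against -0.06 ± 0.29, lower at the edge in 11 of 11 libraries, and B44 -0.28 ± 0.24 against -0.09 ± 0.12, lower at the edge in 10 of 11. B118 had -0.16 ± 0.13 against -0.32 ± 0.44, but the edge was the lower one in 6 of 10 libraries. The share of sites never captured in the 3 bins was 21.2%, 15.2% and 18.9%, within the range of the 10 inner bins (8.72% to 24.7%). With sites that were never captured left out, the B53 values were -0.05 ± 0.36 and 0.46 ± 0.35, again lower at the edge in 11 of 11 libraries.

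The Cdh8 bins were compared with the desert bins that hold no protein-coding gene. Averaged over the 6 baits the difference was 0.06 ± 0.20, above 0 at 4 of 6 baits (exact sign-flip permutation p = 0.531, where 6 baits cannot go below 0.0312). Counted in reads it was -0.23 ± 0.56. In the Cdh8 bin itself B26 had -1.09 ± 1.09, B87 -0.62 ± 1.05, B7 -0.24 ± 1.06, B118 -0.17 ± 0.43 and B44 -0.04 ± 0.33. Only B53 was above 0 there, as given above.

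Other cadherin genes of the chromosome lay in different surroundings and gave other values. Cdh11, another type II cadherin, starts in a bin of 38.8% GC distal to the desert, where B53 had -0.11 ± 0.44, B26 -0.57 ± 0.45 and B87 -0.25 ± 0.38. Cdh5, the cadherin of endothelial cells, starts in a bin of 46.1% GC with 13 genes, where B87 had 0.11 ± 0.52 and B53 -0.29 ± 0.54. Cdh16, a kidney cadherin, starts in a bin of 43.9% GC, where B53 had -0.26 ± 0.25 and B26 -0.48 ± 0.40. Cdh1 (E-cadherin) and Cdh3 (P-cadherin) share a bin of 45.9% GC with 9 genes, where B87 had 0.81 ± 0.59 (10 of 10 libraries above 0), B26 0.37 ± 0.52 and B53 -0.32 ± 0.55. Cdh15 (M-cadherin) starts in a bin of 51.4% GC, where B87 had 0.77 ± 0.38 and B53 -0.69 ± 0.90. Cdh13 (T-cadherin, attached to the membrane by a lipid anchor) starts in a bin of 45.7% GC with 1 gene, where B53 had 0.33 ± 0.21, B44 0.32 ± 0.17 and B26 -0.33 ± 0.44. Among these cadherin bins B53 had a mean above 0 at Cdh8 and at Cdh13, and below 0 at the others.

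The gap between baits varied with the label. B53 exceeded B87 in all 10 labels they share, by 2.61 in the library labelled 4 h, 2.53 in 3 h, 2.09 in 30 min replicate 2 and 1.34 in 30 min replicate 1. The other labels gave 0.74 (1 h replicate 2), 0.56 (2 h), 0.29 (G0 replicate 2), 0.28 (1 h replicate 1), 0.23 (G2) and 0.15 (G0 replicate 1). B53 also exceeded B26 in all 11 labels, by 2.24 in 3 h and 2.15 in 4 h, by 1.78 and 1.77 in the 30 min libraries, and by 0.53 to 1.33 in the other 7, mitosis included (0.90). Depth varied with the label too. The median number of sites captured beyond 2 Mb of the bait was 1463 for 4 h, 2031 for 3 h and 3364 for 30 min replicate 2, but 12974 for 30 min replicate 1 and 7658 for G2. These medians are over baits, and in G2 the number was 19562 at B87 and 6696 at B53. B87 captured 65.0% of desert sites in G2, 56.9% in G0 replicate 2 and 56.5% in 1 h replicate 1. It captured 25.5% in G0 replicate 1, where the gap of 0.15 was the smallest. The part of depth in the gaps was not tested label by label. With every library thinned to 687 captured sites, B53 had a mean of 0.29, B26 -1.15 and B87 -0.70. Thinning drew at random from sites already captured. It cannot undo a high share of captured desert sites, so it does not measure the part of depth.

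**Figure D5:**
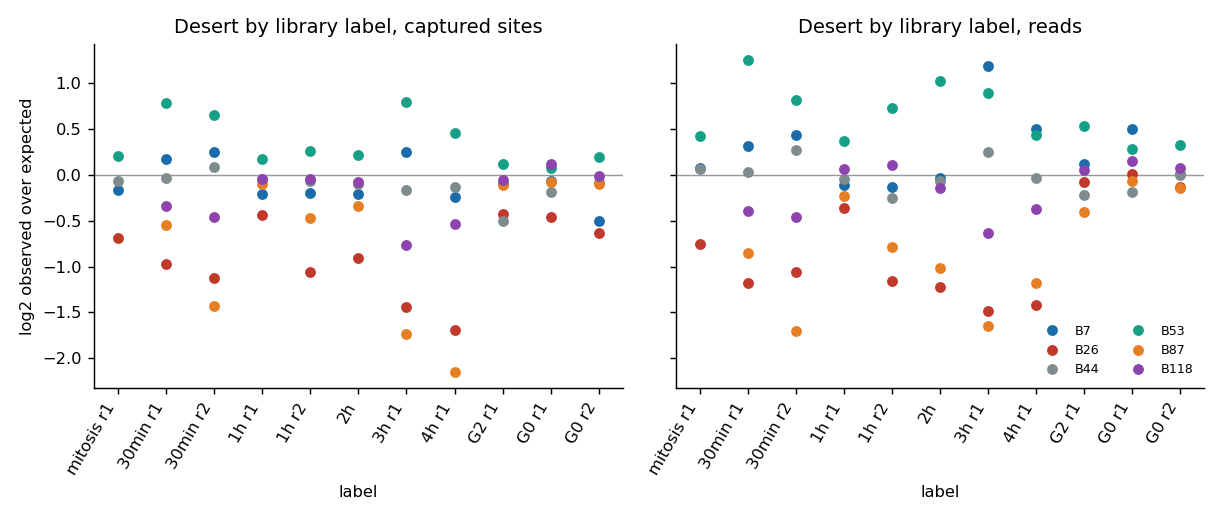
Log2 observed over expected of the desert by library label, coloured by bait, from captured sites on the left and reads on the right. In the libraries labelled 3 h and 4 h the baits span 2.53 and 2.61 log2 units in captured sites, and in those labelled G0 and G2 they lie within 0.83.

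Between the labels of the first hour (0.5 and 1 h, 4 libraries per bait) and those of 2 to 4 h (3 per bait), the captured-site value of the desert was lower at 2 to 4 h by a mean of -0.27 ± 0.29 over the 6 baits. It was below 0 at 5 of the 6 baits and did not pass (exact sign-flip permutation p = 0.0625, adjusted 0.125 over 2 comparisons). By bait the differences were -0.77 at B87, -0.45 at B26, -0.24 at B118, -0.12 at B44, -0.07 at B7 and 0.02 at B53. Only at B44 did the 2 groups not overlap (exact permutation p = 0.0286, the smallest that 4 against 3 libraries allow), where the means were -0.01 and -0.13. The difference over baits was -0.23, -0.28 and -0.26 without 1 h replicate 1, 1 h replicate 2 and 3 h respectively, each with an exact permutation p of 0.0312. Without 3 h and 4 h, which leaves 2 h alone, it was -0.018 (exact permutation p = 0.844), and with only the second technical replicate of 2 h it was -0.27 (0.188). Counted in reads it was -0.10 (exact permutation p = 0.531).

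G0 against 2 to 4 h gave a mean difference of 0.34 ± 0.65 over the 6 baits, above 0 at 4 of 6 (exact sign-flip permutation p = 0.281). It was 0.18 with every library thinned to 687 captured sites (exact permutation p = 0.625) and 0.091 ± 0.19 without 3 h and 4 h (0.312). With any 1 label left out the mean difference lay between 0.23 and 0.47. The 2 groups were not fully separate, since a G0 library of each of the 6 baits shared more sites than chance with a 2 h column as given above. The percentages were highest at B44, B53 and B118. At B87 the 2 G0 libraries (-0.07 and -0.10) lay above those labelled 2, 3 and 4 h (-0.34, -1.73 and -2.15). At B26 they lay at -0.46 and -0.63, above -0.91, -1.44 and -1.69. At B118 they lay at 0.12 and -0.02, above -0.08, -0.77 and -0.53. At B53 they lay at 0.07 and 0.19, below 0.22, 0.80 and 0.46. In these 4 baits the groups did not overlap, but with 2 against 3 libraries the exact permutation p was 0.2 at each. At B87 the sites captured beyond 2 Mb numbered 5954 and 14559 in the G0 libraries and 18346, 1111 and 687 in those of 2, 3 and 4 h.

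Single bins were tested on reads with edgeR's quasi-likelihood test, over 1461 bins of the 6 baits of which 72 lay in the desert. Between 2 to 4 h and the first hour, 0 desert bins were called at an adjusted p under 0.05, where the background over all bins was 0%. At an unadjusted p under 0.05 there was 1 of 72 in the desert and 1.92% of all bins, and DESeq2 also called 0. Without the 2 h library edgeR called 1 desert bin, against 2.05% of all bins. The largest changes were in the bin from 102000001 to 102500000 at B87 (log2 fold change -2.20 ± 1.42, SE), and at B7 in those from 103000001 to 103500000 (2.14 ± 0.92) and from 100500001 to 101000000 (-2.13 ± 1.92). None passed (edgeR adjusted p = 0.914 for all 3).

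G0 against 2 to 4 h also gave 0 calls in the desert, against a background of 0%, but 27 of 72 desert bins had an unadjusted p under 0.05, against 31.3% of all bins. Without G0 replicate 1 it was 12 of 72, against 15.4% of all bins, and without G0 replicate 2 it was 6 of 72, against 13.4%. The largest changes were at B7, from 100000001 to 100500000 (-4.17 ± 1.08, edgeR adjusted p = 0.0651) and from 99500001 to 100000000 (-3.88 ± 1.39, 0.0935), and at B87 from 102000001 to 102500000 (3.71 ± 1.64, 0.154). All 12 desert bins had lower scaled reads in G0 at B53, B26 and B44 (-2.42 to -0.62 at B53, medians of -1.07 at B26 and -2.05 at B44), and 11 of 12 had higher ones at B87 and B118 (2.75 and 1.50). These read changes are not corrected for distance, so a change in the decay of contacts with distance enters them. Over all bins of the 6 baits together the median was -0.21, and it was -0.85 when libraries were scaled by read totals. The direction of all chromosome 8 bins was not counted bait by bait. The desert counts by bait are therefore not shown to be particular to the desert. The call count depended on the method: DESeq2 called 23 desert bins (3 higher and 20 lower in G0), against 24.7% of all bins, and edgeR on captured sites called 23 (18 higher and 5 lower), against 15.3%. On reads, edgeR called 8 of 72 without 1 h replicate 1, against 9.99% of all bins, and 14 of 72 without 2 h, against 16%. It called 11 of 72 with only the second technical replicate of 2 h, against 8.42% of all bins, and 2 of 72 with libraries scaled by read totals, against 4.11%.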

How the data were processed

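The authors deposited raw read counts per HindIII site. The submitters' processing notes name BWA 0.5.9 and the mm9 build. Read filters are not given in the sources used here, and 39 columns of other baits and of 1.5 h were left out. The region and the lists were chosen with earlier results of these data known.

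Genes came from GENCODE vM1, on mm9. Captured sites (1 read or more) were summed in 500-kb bins of chromosome 8 more than 2 Mb from the bait with at least 50 HindIII sites. The expected number was the bin's HindIII sites times a rate from a lowess (span 0.5, pseudocount 0.5) of log2 rate on log10 distance, scaled to the library's total. The desert's bins were part of this fit, and the fit without them is an alternative. Without molecular identifiers, PCR reads are not separate ligations, so intervals cover counting error only.

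Bin reads were tested with edgeR 4.0.16 in R 4.3.3 (TMM, glmQLFit robust), with 1 fit per bait over all its libraries and Benjamini-Hochberg adjustment over all baits at 0.05. DESeq2 1.42.0 was an alternative. By rule, bins past the threshold were named or else the 3 largest changes, and the 5 sites captured in most libraries. Tested on simulated data for 2 to 4 h against the first hour over 1461 bins, edgeR made 155 calls, 3 of them false, and recovered 57.1% of 4-fold and 100% of 16-fold changes. The simulated counts had the same fixed spread in every bin and bait, and G0 was not simulated. In the real desert bins of this comparison the SE ran from 0.43 at B87 to 1.92 at B7. These recovery rates therefore need not hold for the real bins. With the desert left out of the distance fit, planted desert shifts were recovered within 0.112. That figure does not cover the main values, whose fit held the desert's bins. The other steps ran in Python 3.11.15 (scipy 1.17.1, numpy 2.4.6, pandas 2.3.3, statsmodels 0.14.6).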

Additional observations from a re-analysis of the deposited data

Results flagged for a closer look

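The desert's captured-site value changed in opposite directions between baits from the libraries labelled 2 to 4 h to those labelled G0. The G0 mean was higher by 0.80 at B26, by 1.32 at B87 and by 0.51 at B118, and differed by -0.36 at B53, all in log2 units. At each of these 4 baits the 2 G0 libraries did not overlap the 3 others. The values thus moved toward 0 at these 4 baits. At B7 the mean moved away from 0, from -0.06 to -0.28, and at B44 it was -0.13 in both groups. Libraries labelled 3 h and 4 h captured the fewest sites beyond 2 Mb of the bait, with medians of 2031 and 1463. Without them the mean difference over the 6 baits was 0.091, against 0.34 with them. The part of depth in it was not tested. The difference between the baits was not tested.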

How the results depend on the processing

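Of 607 values under alternatives, 16 no longer passed, 24 newly passed and 11 moved by more than the replicate spread or, for counts, by 1.5 times. Of the 546 that are levels or differences, 28 changed sign, none of them past the threshold of a test, and 67 others moved by over 1.5 times. The sign changes were in the B7 level (0.034 to 0.26 where changed), the B44 level (0.0027), B44 minus flanks (0.0044 to 0.13) and minus AT-rich bins (-0.10 to -0.00038), B7 minus AT-rich bins (0.086 to 0.12) and the Cdh8 difference (-0.23 to -0.0029). The sign of the mean and the call against the flanks held at B26 in all 26 alternatives. Without HindIII site correction, desert minus flanks was 0.21 at B7 (passed) and -0.25 at B118 (lost), and desert minus other AT-rich bins 0.14 at B44 (passed). With reads, the desert value was 0.26 at B7 and 0.65 at B53, and minus flanks -0.26 at B118 (lost). With capped reads the B7 value was 0.24, minus flanks at B118 -0.27 and minus AT-rich bins at B87 0.13 (both lost). With the desert left out of the distance fit, minus AT-rich bins was -0.43 at B26 (passed) and 0.13 at B87 (lost). A Poisson spline gave 0.15 against the flanks at B7 (passed). In 250-kb bins, minus AT-rich bins was -0.22 at B7 and -0.39 at B26 (both passed), and in 1-Mb bins the Cdh8 difference was 0.094 (passed). Thinned, B7 had -0.37, and minus AT-rich bins -0.39 at B7 and -0.55 at B26 (both passed). With sites captured at least once, minus flanks was 0.20 at B7 (passed) and -0.26 at B118 (lost), and minus AT-rich bins 0.15 at B87 (lost). With 2 h technical replicate 2 only, minus flanks at B7 was 0.16 (passed). With the short bar code only, minus AT-rich bins at B87 was 0.25 (lost).

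The alternatives in this paragraph were chosen after seeing the data. Without the gene-rich first bin, minus AT-rich bins was -0.54 at B26 (passed), 0.081 at B87 and 0.073 at B118 (both lost). Without 3 h and 4 h it was -0.19 at B7 and -0.47 at B26 (both passed), the level was -0.40 at B87 and -0.11 at B118, minus flanks was -0.66 and -0.17 there (both still passing), 2 to 4 h minus the first hour was -0.018 and G0 minus 2 to 4 h 0.091. In libraries that captured under 50% of the desert sites (7 of B53, 7 of B87, 5 of B118), minus flanks was 0.48 at B53, -1.52 at B87 and -0.56 at B118, and minus AT-rich bins 0.28, 0.24 and 0.22, with all 6 calls lost at the smaller number of libraries.

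With each library left out in turn, minus AT-rich bins lay between -0.18 and -0.12 at B7 and between -0.43 and -0.28 at B26, minus flanks at B7 from 0.10 to 0.16, and 2 to 4 h minus the first hour from -0.40 to -0.16. Desert bins called ranged from 0 to 1 for 2 to 4 h (1 without 2 h) and from 0 to 14 for G0 (8 without 1 h replicate 1, 14 without 2 h). The G0 count was 23 with DESeq2 (24.7% of all bins called), 2 with read totals (4.11%), 23 on captured sites (15.3%) and 11 with 2 h technical replicate 2 only (8.42%). Pairs of baits past the threshold numbered 8 to 13. Except where a count of libraries is given, the cause was not tested. With the replicate number as a block, 0 bins were called in either comparison. The numbers did not pair the samples: 6 of 18 correlations between same-numbered libraries exceeded 0.1 (-0.40 to 0.25).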
